A study of Arabidopsis thaliana with 6 samples.

Results

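The genes described here are 10 genes of phosphate sensing and phosphate export in Arabidopsis thaliana: SPX1, SPX2, SPX3, SPX4, PHO1, PHO1;H1, PHR1, PHL1, PHO2 and NLA. They were chosen by gene identifier for their known place in the pathway and are 10 of the 23022 genes listed in at least 1 library. The rule used no measured value, but the set was drawn up with earlier results of these data known. Polyadenylated RNA of whole seedlings was sequenced from wild type (WT, 3 libraries) and from the mutant 17ab (3 libraries). Both groups were grown for 10 days on vertical plates with diluted MS-0 medium, seedlings of similar size were taken, and the labels name no stress and no change of phosphate supply. Which genes carry the mutations of 17ab, which accession the WT is and whether the 3 libraries of a group came from separate plates is not stated in the labels. The title of the series places the mutant in the unfolded protein response, the pathway by which cells answer unfolded protein in the endoplasmic reticulum.

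Plants take up phosphorus as inorganic phosphate and keep its concentration in the cell within limits. SPX domains bind inositol pyrophosphates, whose level follows the phosphate status of the cell, and an SPX protein with its ligand holds the transcription factor PHR1 away from DNA. When phosphate is low, PHR1 is released and binds the P1BS motif in front of phosphate starvation genes, SPX1 and SPX3 among them. PHO1 exports phosphate into the xylem, and the ubiquitin enzymes PHO2 and NLA remove phosphate transporters. SPX1, SPX2, SPX3 and PHO1;H1 are known mainly for induction of their transcripts by low phosphate. SPX4, PHR1, PHL1, PHO2 and NLA are known mainly for control of the protein, or for cleavage of the mRNA by a microRNA, and PHO1 is known for both.

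The libraries held 5968854 to 6292461 expected counts (reads assigned to genes), with 21003 to 21429 genes listed in each, and 3 counts correspond to 0.477 to 0.503 CPM (counts scaled to a common library total). All 10 genes were listed in all 6 libraries, passed the filter on low counts and had whole-number counts, so that none of their reads had been divided with another gene. SPX3 passed that filter through the 17ab libraries, and its WT libraries alone would not have passed. Transcripts of 3 of 5 sensors of the unfolded protein response fell in 17ab, with log2 fold changes of -2.43 for bZIP17, -1.68 for IRE1A and -0.73 for IRE1B (edgeR adjusted p = 1.221e-06, 2.982e-06 and 0.001345). Of all tested genes 6.51% fell. The sensors bZIP28 and bZIP60 had log2 fold changes of 0.16 and 0.23 and did not pass the test. Whole seedlings hold root and shoot, and the 16 root marker genes summed to 42.8 to 44.5 FPKM (counts scaled to gene length and to the library total) in WT and 46.3 to 48.7 in 17ab. These sums of all 16 did not overlap between the groups. Without AKT1 the sums were 37.8, 37.7 and 39.7 FPKM in WT and 37.3, 39.3 and 37.5 in 17ab, which overlap. GL2 was kept in both sums, so that the overlap holds for the removal of AKT1 alone. Of the 4 root markers that passed the filter on low counts, AKT1 rose and GL2 fell. The 11 leaf markers summed to 27680 to 33410 FPKM in WT and 26940 to 29640 in 17ab, CA1 fell and none rose. No marker of either list was at 0 in all libraries. COBL9 of the root hairs was at 0 in the 3 WT libraries, and CASP5 of the endodermis in the 3 17ab libraries and WT replicate 1. Among root markers below the filter, COBL9, EXPA7 and CASP1 were higher in every 17ab library than in any WT library, and CASP2 was lower. Mean FPKM in WT and 17ab was 0.05 and 0.527 for EXPA7, 0.49 and 1.31 for CASP1, and 0.773 and 0.38 for CASP2. These values rest on few counts, at most 22 in the 3 libraries of a group. The part of root and leaf tissue in the results that follow was not tested. In RNA of whole seedlings, fewer cells of a type and less RNA per cell cannot be told apart.

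In 17ab the transcripts of SPX1, SPX2, SPX3, PHO1;H1, PHO1 and PHO2 rose, and none of the 10 genes fell. The rises ranged from 0.48 to 2.05 on the log2 scale. PHR1, PHL1, SPX4 and NLA did not pass the test. Thus 6 of 10 genes rose at an edgeR adjusted p under 0.05, against 7.57% of the 17854 genes tested, and 0 of 10 fell, against 6.51%. The median log2 fold change of the 10 genes was 0.51, and that of all tested genes 0.00. The FPKM values of WT and 17ab did not overlap for 7 of the 10 genes, 6 higher and 1 (SPX4) lower in 17ab, while groups without overlap were seen in 31.1% of all tested genes. Of all tested genes 14.1% changed, and 53.8% of those calls were rises. After a correction of every library for GC content and length, chosen after seeing the data, 43.1% of the calls were rises and the median of all genes was -0.038.

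**Figure D1:**
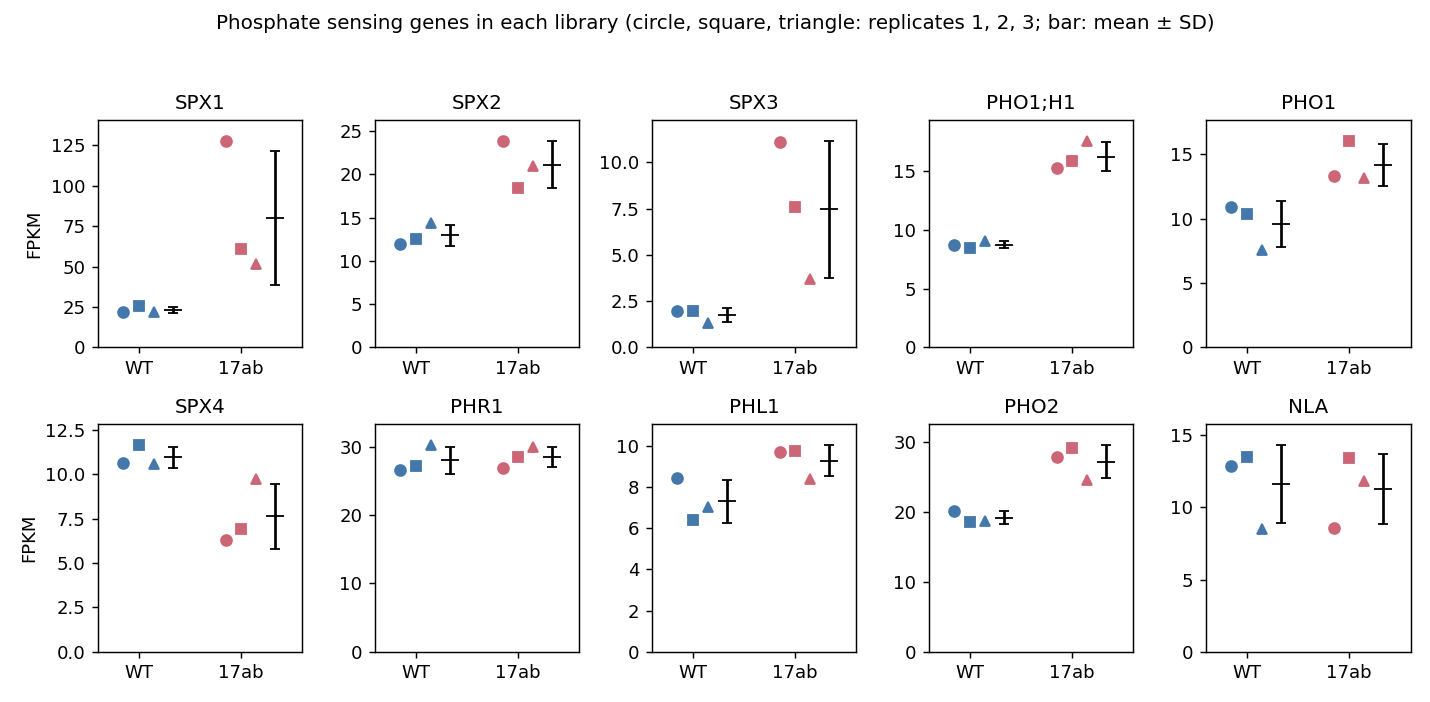
FPKM of the 10 phosphate sensing genes in each library, WT in blue and 17ab in red; symbols mark replicates 1 to 3 and the black bar is the mean ± SD of 3 libraries. For SPX1, SPX2, SPX3, PHO1;H1, PHO1 and PHO2 all 17ab points lie above all WT points, and for SPX4 all lie below.

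SPX1 (AT5G20150), a nuclear protein that binds PHR1, had 22.2, 25.6 and 21.9 FPKM in WT replicates 1 to 3 and 128, 60.9 and 51.3 FPKM in 17ab replicates 1 to 3. The lowest 17ab library was well above the highest WT library, and 17ab replicate 1 stood far above the other two. The mean went from 23.2 ± 2.02 to 80.0 ± 41.7 FPKM (SD, n = 3), and the log2 fold change was 1.75 ± 0.27 (SE, edgeR adjusted p = 0.0009349). Without 17ab replicate 1 the log2 fold change was 1.25, and SPX1 was called without each of the 6 libraries in turn.

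SPX3 (AT2G45130), a close relative of SPX1 that is known as a starvation marker, was the least abundant of the 10 genes in WT. Its FPKM was 1.98, 1.97 and 1.30 in WT and 11.1, 7.58 and 3.72 in 17ab. These values rest on 11, 11 and 7 counts in WT and 63, 43 and 21 counts in 17ab, so counting error is largest for this gene. It was tested because of its higher counts in 17ab, since the WT libraries alone would not have passed the filter on low counts. The groups did not overlap, and the 17ab libraries spread over a wide range, with replicate 1 highest as for SPX1. From a mean of 1.75 ± 0.390 to 7.47 ± 3.70 FPKM (SD, n = 3), the log2 fold change was 2.05 ± 0.40 (SE, edgeR adjusted p = 0.004587). SPX1 and SPX3 both rose at least 2-fold, as did 1.92% of all tested genes.

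SPX2 (AT2G26660), the nearest relative of SPX1, rose less. It had 12.0, 12.6 and 14.3 FPKM in WT and 23.9, 18.4 and 21.0 FPKM in 17ab. The groups were separate and each was narrow. The mean moved from 13.0 ± 1.22 to 21.1 ± 2.73 FPKM (SD, n = 3), and the log2 fold change was 0.68 ± 0.13 (SE, edgeR adjusted p = 0.003779).

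The P1BS motif, to which PHR1 binds, was searched as GNATATNC, which is its own reverse complement, so that a match counts on both strands. In the window from 250 bases before to 50 bases after the annotated gene start it was found in 6.25% of 27443 protein-coding genes, in SPX1 and SPX3 among the inducible genes, and in 0 of the 5 genes controlled after transcription. The 250 bases before the start of SPX3 (chr2:18606160-18606409, plus strand, RefSeq annotation of TAIR10.1) are shown because they hold 2 matches, which are in capitals.
SPX3 promoter: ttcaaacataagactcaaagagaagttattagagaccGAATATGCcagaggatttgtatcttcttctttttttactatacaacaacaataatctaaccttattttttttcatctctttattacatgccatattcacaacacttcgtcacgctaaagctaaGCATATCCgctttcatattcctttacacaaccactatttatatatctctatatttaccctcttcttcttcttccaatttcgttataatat
The matches began 213 and 90 bases before the start. SPX1 had a match that began 22 bases after its start (chr5:6802293-6802322, plus strand) and another that began 735 bases before it (chr5:6801536-6801565), each shown with 11 bases on either side.
SPX1 near match: cagagaaaaaaGGATATTCtaattagaaac
SPX1 distant match: tttcctatcaaGAATATTCcatggaatcca
In the 1000 bases before the start, 20.3% of all protein-coding genes held the motif, and so did 2 of the 4 inducible genes and 4 of the 5 genes controlled after transcription. Those 4 were SPX4, PHL1, PHO2 and NLA, with matches that began 338, 795, 526 and 253 bases before their starts. SPX2, PHO1;H1, PHO1 and PHR1 held no match in either window. Of the 6 genes with a match in the longer window, SPX1, SPX3 and PHO2 rose and SPX4, PHL1 and NLA did not pass the test. A match is a description of letters and no evidence of binding.

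PHO1;H1 (AT1G68740), a PHO1 homologue that can take over phosphate transfer to the xylem, had 8.69, 8.46 and 9.07 FPKM in WT and 15.3, 15.8 and 17.6 FPKM in 17ab. Its replicates were tight in both groups and the gap between the groups exceeded either range. The mean rose from 8.74 ± 0.308 to 16.2 ± 1.20 FPKM (SD, n = 3), and the log2 fold change was 0.86 ± 0.09 (SE, edgeR adjusted p = 9.119e-05), the smallest adjusted p of the 10 genes. Here 17ab replicate 3 was the highest and replicate 1 the lowest, the reverse of SPX3.

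PHO1 (AT3G23430), the exporter that loads phosphate into the xylem, had 10.9, 10.3 and 7.57 FPKM in WT and 13.3, 16.1 and 13.2 FPKM in 17ab. The groups were separate, with WT replicate 3 low and 17ab replicate 2 high. The mean went from 9.59 ± 1.77 to 14.2 ± 1.63 FPKM (SD, n = 3) and the log2 fold change was 0.53 ± 0.13 (SE, edgeR adjusted p = 0.01815). That call rested on those libraries: without WT replicate 3 the log2 fold change was 0.38 (edgeR adjusted p = 0.07161) and without 17ab replicate 2 it was 0.43 (edgeR adjusted p = 0.06859).

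The mean FPKM of PHO1;H1 lay below that of PHO1 in WT and above it in 17ab. On the log2 scale the ratio of PHO1;H1 to PHO1 was -0.32, -0.29 and 0.26 in WT and 0.20, -0.02 and 0.41 in 17ab. The groups overlapped, and the difference of 0.31 had an exact two-sided permutation p = 0.3 (Benjamini-Hochberg adjusted 0.36 over 6 ratios), where 0.1 is the smallest that 3 against 3 libraries allow, so the test could not pass and does not show that the ratios were alike.

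Of the genes known for control after transcription, PHR1 (AT4G28610), the central transcription factor of the response, showed no difference that this design detected. It had 26.6, 27.1 and 30.3 FPKM in WT and 26.9, 28.5 and 29.9 FPKM in 17ab. The ranges of the 2 groups nearly coincided. The log2 fold change was 0.00 ± 0.08 (SE, edgeR adjusted p = 0.9919), and leaving out libraries or changing the method kept it between -0.04 and 0.05. NPGR2, a gene on the opposite strand that overlaps PHR1, showed a log2 ratio of 0.29 ± 0.10 (SE, edgeR adjusted p = 0.05622), and without knowledge of strand in the counting reads of the overlap cannot be told apart.

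PHL1 (AT5G29000), a PHR1 paralogue with which it shares function, had 8.47, 6.42 and 7.06 FPKM in WT and 9.72, 9.75 and 8.41 FPKM in 17ab. The groups overlapped by 1 library, 17ab replicate 3, which lay just under WT replicate 1. At 0.30 ± 0.15 on the log2 scale it did not pass the test (SE, edgeR adjusted p = 0.2179). The gene length in the deposited tables differed between libraries for PHL1 (1440 to 1679 bases), NLA (1341 to 1517 bases) and PHO1;H1 (3050 to 3081 bases), which enters their FPKM but not the counts tested.

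SPX4 (AT5G15330), an SPX protein placed here among the genes controlled after transcription, lay on the other side. It had 10.6, 11.7 and 10.6 FPKM in WT and 6.30, 6.90 and 9.73 FPKM in 17ab. Every 17ab library was below every WT library, with replicate 3 close to WT. The mean was 10.97 ± 0.610 FPKM in WT and 7.64 ± 1.83 FPKM in 17ab (SD, n = 3), and the log2 fold change of -0.55 ± 0.17 missed the threshold (SE, edgeR adjusted p = 0.05211). It passed without 17ab replicate 3, at -0.76 (edgeR adjusted p = 0.0128), and lay from -0.76 to -0.42 over all 15 alternatives.

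PHO2 (AT2G33770), an E2 ubiquitin conjugase that promotes degradation of PHO1 and of uptake transporters, was the single gene of this class that rose. It had 20.2, 18.6 and 18.7 FPKM in WT and 27.8, 29.2 and 24.6 FPKM in 17ab. The groups were separate and both were narrow. From 19.2 ± 0.899 to 27.2 ± 2.38 FPKM (SD, n = 3), the log2 fold change was 0.48 ± 0.08 (SE, edgeR adjusted p = 0.002142).

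NLA (AT1G02860), a ubiquitin ligase with an SPX domain, had 12.9, 13.5 and 8.50 FPKM in WT and 8.60, 13.4 and 11.8 FPKM in 17ab. Each group held 1 low library, and the ranges coincided. The log2 fold change was -0.01 ± 0.19 (SE, edgeR adjusted p = 0.9778). NLA overlaps AT1G02870 and AT1G04147 on the opposite strand, and AT1G02870 showed a log2 ratio of -0.09 ± 0.14 (SE, edgeR adjusted p = 0.7314).

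PHO2 and NLA are the textbook microRNA targets of this pathway, cut by miR399 and miR827, so the mature microRNAs are shown with the seed (bases 2 to 8) in capitals, from the RefSeq annotation of TAIR10.1. The miR399 forms shown share 1 seed, and miR399b and the 3p arm of miR399c are the same sequence.
miR399a: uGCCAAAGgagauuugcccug
miR399b: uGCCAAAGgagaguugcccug
miR399d: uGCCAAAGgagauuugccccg
miR399e: uGCCAAAGgagauuugccucg
miR399f: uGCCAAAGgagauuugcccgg
miR827: uUAGAUGAccaucaacaaacu
The 5′ UTR of PHO2 held 5 sites complementary to miR399 on the minus strand of chromosome 2, listed here by genome position with the complement of the seed in capitals: chr2:14281770-14281790, chr2:14281827-14281847, chr2:14281884-14281904, chr2:14281973-14281993 and chr2:14282106-14282126.
PHO2 site a: uagagcaaaucucCUUUGGCa
PHO2 site b: ucgagcaaaucucCUUUGGCa
PHO2 site c: uugggcaaaucucCUUUGGCa
PHO2 site d: uagggcauaucucCUUUGGCa
PHO2 site e: uagggcaaaucuuCUUUGGCa
NLA held 1 site for miR827 in its 5′ UTR (chr1:635401-635421, plus strand).
NLA site: uguuuguugauggUCAUCUAa
Penalties were 1 point per mismatch and 0.5 per G:U pair. The lowest for PHO2 was 1.0, at site e for miR399a and at site c for miR399f. The NLA site had 1.0 for miR827. At a penalty of at most 2.5, PHO2 was the 1 gene of 27440 with a site for miR399f and NLA the 1 gene with a site for miR827 (0.00364% each). For miR399a, miR399d and miR399e, 2 genes each held a site at that penalty (0.00729%), so PHO2 was not alone for these forms. In the other 8 genes the lowest penalty was 5.5. PHO2 rose and NLA did not pass the test, and the difference between them was tested as a ratio. The log2 ratio of PHO2 to NLA was 0.65, 0.46 and 1.14 in WT and 1.69, 1.12 and 1.06 in 17ab, with overlap, and its difference of 0.54 had an exact two-sided permutation p = 0.3 (Benjamini-Hochberg adjusted 0.36 over 6 ratios), in a design that cannot go below 0.1.

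Mature microRNAs are not measured in these libraries, and the 7 primary transcripts searched for, those of miR399a to miR399f and miR827, were not listed in any library. The noncoding RNAs IPS1 and AT4, which pair with miR399 without being cut and so sequester it, were both measured. IPS1 went from 16.7 ± 4.18 to 49.0 ± 4.51 FPKM (SD, n = 3), and the log2 fold change was 1.53 ± 0.17 (edgeR adjusted p = 0.0001047). AT4 went from 16.7 ± 5.98 to 85.2 ± 18.97 FPKM (SD, n = 3), and the log2 fold change was 2.32 ± 0.20 (edgeR adjusted p = 1.425e-05). Their log2 fold changes lay above that of PHO2.

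**Figure D2:**
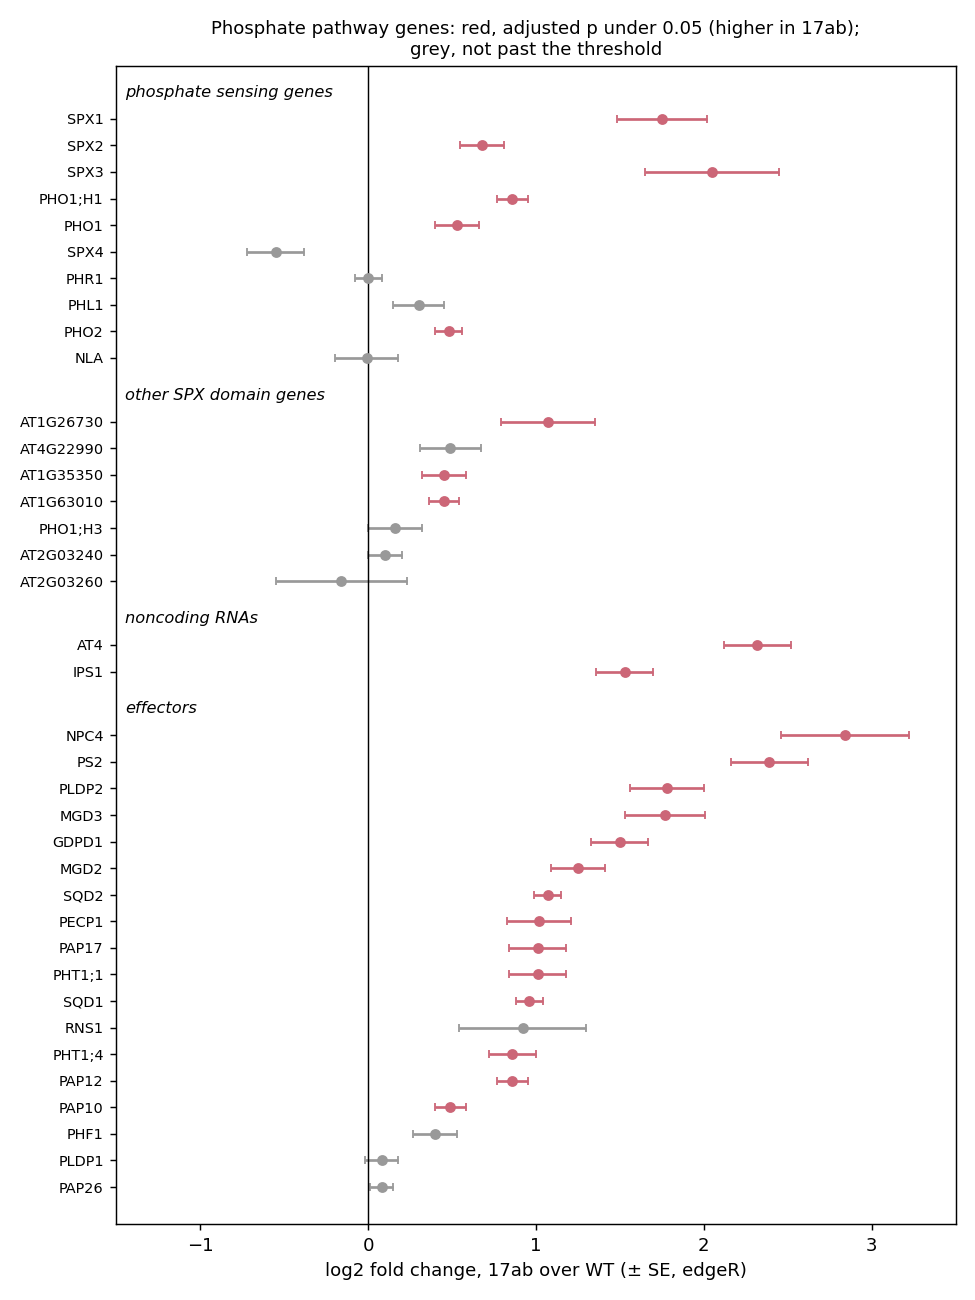
Log2 fold change of 17ab over WT (± SE, edgeR) for the 10 phosphate sensing genes and for the tested genes of 3 further lists; red points passed an adjusted p of 0.05 and grey points did not. All red points lie to the right of 0, and PHR1 and NLA sit at 0.00 and -0.01. The list of other regulators, of which 2 rose and 2 fell, is not drawn.

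Set by class, 4 of 4 inducible genes rose, with a median log2 fold change of 1.31, and 1 of 5 genes controlled after transcription rose, with a median of 0.00, beside 7.57% of all tested genes. With 5 genes, 1 rise cannot be told from that background. The classes differ here in counts and medians, and that difference was not tested, since the genes and classes were chosen with results of these data known. The summed FPKM of the inducible genes was 44.9, 48.6 and 46.6 in WT and 178, 103 and 93.6 in 17ab. That of the genes controlled after transcription was 78.8, 77.3 and 75.1 in WT and 79.4, 87.8 and 84.4 in 17ab. In WT the inducible class was the smaller in each library, and in 17ab it was the larger in each. That exchange rested on SPX1, without which the inducible sum was 22.7, 23.0 and 24.7 FPKM in WT and 50.3, 41.8 and 42.3 in 17ab, below the other class in every library.

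**Figure D3:**
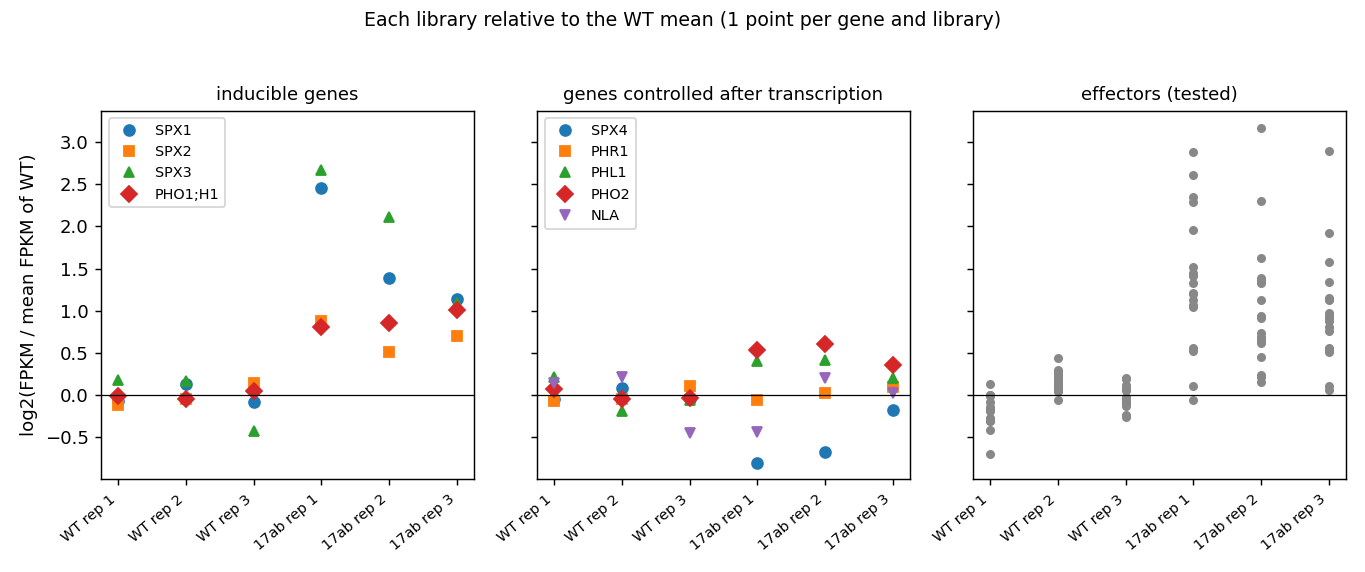
Log2 of FPKM in each library over the mean FPKM of WT, for the inducible genes, the genes controlled after transcription and the tested effector genes; each point is 1 gene in 1 library. SPX1 and SPX3 reach 2.46 and 2.67 in 17ab replicate 1, and the genes controlled after transcription stay between -0.80 and 0.61.

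The order of the FPKM levels differed between the groups. In WT, PHR1 was highest at 28.0 FPKM, followed by SPX1, PHO2, SPX2, NLA, SPX4, PHO1, PHO1;H1, PHL1 and SPX3. The libraries of each gene from SPX2 down to PHL1 overlapped with those of the next, while PHR1, SPX1, PHO2 and SPX2 were separate from each other and SPX3 was separate below PHL1. In 17ab, SPX1 was highest at 80.0 FPKM and separate from PHR1, which overlapped with PHO2. SPX2 and PHO1;H1 followed, separate from their neighbours above, and PHO1;H1, PHO1, NLA, PHL1, SPX4 and SPX3 overlapped each with the next.

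SPX1 to SPX4 together had 46.9, 51.8 and 48.2 FPKM in WT and 169, 93.8 and 85.8 FPKM in 17ab. SPX1 made up 47.4%, 49.4% and 45.6% of that sum in WT and 75.6%, 64.9% and 59.8% in 17ab. SPX4 made up 22.7%, 22.5% and 22.0% in WT and 3.73%, 7.36% and 11.3% in 17ab. The summed SPX transcript level was thus larger in 17ab and held a larger part of SPX1 and a smaller part of SPX4 in each 17ab library than in any WT library. Shares of 1 sum are bound together, so that a rise of SPX1 lowers the share of SPX4 even where SPX4 stays the same. The mean FPKM of SPX4 itself in 17ab was 0.697 of that in WT, and SPX4 did not pass the test. The share of SPX2 overlapped between the groups, at 24.2% to 29.8% in WT and 14.1% to 24.5% in 17ab.

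Within this sum, the log2 ratio of SPX1 to SPX4 went from 1.08 ± 0.04 to 3.29 ± 0.98 (SD, n = 3), with an exact two-sided permutation p = 0.1, the smallest that 3 against 3 libraries allow. That of SPX1 to SPX2 went from 0.84 ± 0.21 to 1.81 ± 0.57 (SD, n = 3) and that of SPX1 to PHR1 from -0.27 ± 0.19 to 1.37 ± 0.77 (SD, n = 3), both also with an exact permutation p = 0.1. These 3 ratios did not overlap between the groups and had a Benjamini-Hochberg adjusted p of 0.2 over the 6 ratios by the exact test, which cannot reach the threshold in this design. For SPX3 over SPX1 the groups overlapped, with a log2 ratio of -3.75 ± 0.30 in WT and -3.44 ± 0.40 in 17ab (SD, n = 3, exact permutation p = 0.5).

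**Figure D4:**
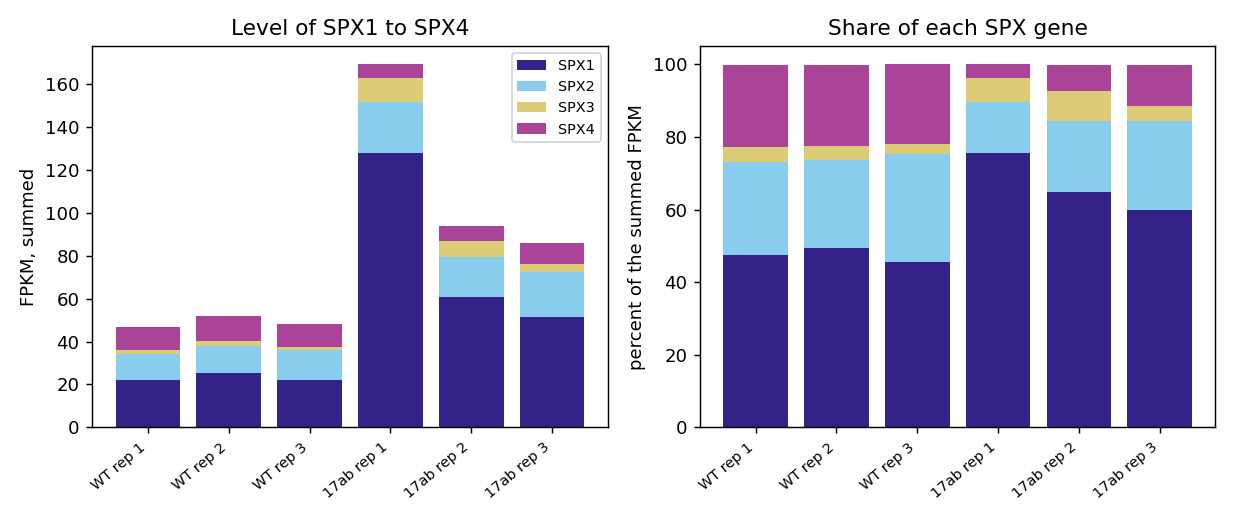
Stacked FPKM of SPX1 to SPX4 in each library (left) and the percentage of each in the sum (right). The SPX1 share is 45.6% to 49.4% in WT and 59.8% to 75.6% in 17ab, and the SPX4 share is at least 22.0% in WT and at most 11.3% in 17ab.

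The other genes of the pathway were followed in 4 lists. The effectors were 25 genes for transporters, phosphatases and lipid enzymes by which a plant gains or saves phosphate. In the whole test 7.57% of genes rose and 6.51% fell. Among the 18 effectors tested, 14 rose and none fell, and their median was 1.01 on the log2 scale. The lack of falls among these 18 effectors cannot be told from that background. The largest rises were those of NPC4, a phospholipase C, at 2.84 ± 0.38 (edgeR adjusted p = 0.0003867), and PS2, a phosphatase, at 2.39 ± 0.23 (edgeR adjusted p = 3.056e-05). NPC4 had 3, 5 and 3 counts in WT, near the floor of 3, and 23, 34 and 28 in 17ab. It passed the filter on low counts through the 17ab libraries alone. In the limma-trend fit on log2(FPKM + 1) its value was 1.34 and that of PS2 2.22, so their order depended on the method. PLDP2, a phospholipase D, rose by 1.78 ± 0.22, the galactolipid synthase MGD3 by 1.77 ± 0.24 and the phosphodiesterase GDPD1 by 1.5 ± 0.17 (edgeR adjusted p = 0.0002228, 0.0004571 and 0.0001344). SPX1 and SPX3 thus lay within the range of the effectors, and PHO1;H1, SPX2, PHO1 and PHO2 below the effector median. The P1BS motif was present in the window around the start in 11 of the 25 effectors (44.0%), beside 6.25% of all protein-coding genes.

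Among the 13 other genes with an SPX domain, from the families of PHO1, vacuolar phosphate transporters and NLA, 7 were tested, 3 rose and none fell, with a median of 0.45. Beside this, 7.57% of all tested genes rose and 6.51% fell, so that no fall among 7 genes lies near that share. AT1G63010, a vacuolar transporter gene, rose from 18.3 ± 0.120 to 25.8 ± 2.95 FPKM (SD, n = 3), and the log2 fold change was 0.45 ± 0.09 (edgeR adjusted p = 0.004667). The PHO1 family genes AT1G26730 and AT1G35350 rose by 1.07 ± 0.28 and 0.45 ± 0.13 (edgeR adjusted p = 0.02341 and 0.03513), with reads divided between genes. The number of risen genes was 1 without WT replicate 2 or without 17ab replicate 3, where the calls of AT1G26730 (edgeR adjusted p = 0.08884 and 0.05598) and AT1G35350 (0.1462 and 0.1222) were lost. None of the 13 held the P1BS motif in the window around the start, beside 6.25% of all protein-coding genes, so that none among 13 lies near that share. In the 1000 bases before the start 3 of the 13 held it (23.1%), beside 20.3% of all protein-coding genes. Of the 22 other regulators described next, 5 (22.7%) held it in the window around the start.

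Of 22 other regulators, 18 were tested, 2 rose and 2 fell, with a median of 0.12, beside 7.57% risen and 6.51% fallen among all tested genes, so that the counts lie near that background. WRKY6, known as a repressor of PHO1, rose by 0.62 ± 0.12 (edgeR adjusted p = 0.003624). LPR2, a ferroxidase of the root tip response to low phosphate, rose by 0.37 ± 0.09 (edgeR adjusted p = 0.01563), a call that went with WT replicate 2 left out (0.08203) and with 17ab replicate 2 left out (0.05839, both edgeR adjusted p). AT1G25550, a myb-like factor, fell by 0.32 on the log2 scale (SE 0.07, edgeR adjusted p = 0.008682). ALMT1, a malate channel, fell by 0.73 (SE 0.23, edgeR adjusted p = 0.04868), a call that held without 17ab replicate 1 and was lost without any other single library (edgeR adjusted p from 0.05439 to 0.151). SIZ1, which attaches SUMO to PHR1, and the paralogues of PHR1 in the list, AT3G24120, UNE16 and AT2G20400, did not pass the test, with log2 fold changes of 0.15, -0.07, 0.11 and 0.16. The inositol phosphate kinases AT5G15070, AT3G01310 and ITPK1, of the pathway that makes the SPX ligand, had log2 fold changes of 0.27, 0.12 and -0.07 and did not pass either.

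The 17ab libraries were not alike in this pathway. SPX1, SPX2 and SPX3 were highest in 17ab replicate 1, and 4 of the 6 risen genes were lowest in replicate 3. Of the 14 risen effectors 11 (78.6%) were highest in replicate 1, against 610 of all 1352 risen genes (45.1%). The 14 effectors and the SPX genes share these libraries, so that the shares are a description.

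The 5 genes whose log2(FPKM + 1) followed that of SPX1 most closely over the 6 libraries, of 14058 genes that reached 5 FPKM in at least 1 group mean, were AT5G20700, AT3G43110, AT1G55210, BGLU22 and FLR1, with Pearson r from 0.993 to 0.9947. AT3G43110 and BGLU22 reached that level in 17ab alone. Among them AT3G43110 had 1.48, 1.63 and 1.19 FPKM in WT and 8.69, 4.66 and 4.20 FPKM in 17ab. A rise in 17ab and a high replicate 1 follow from the choice of these genes. The likeness includes the difference between the genotypes, which all 6 points share.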

How the data were processed

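Per the file headers, each deposited table holds, for every gene it lists, its length, its expected count and its FPKM. TAIR10, STAR 2.4.0, HTSeq 0.6.0 and DESeq2 appear in the submitters' processing notes without a role; the program that made the counts and the use of strand are not given in the sources used here. FPKM values are the authors' own, scaled to gene length and library total. Genes absent from a table were set to 0.

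Expected counts were rounded and tested with edgeR 4.0.16 (R 4.3.3): quasi-likelihood test, trimmed mean of M-values normalization, default filter (17854 genes, 99.78% of counts), genotype as the single term, Benjamini-Hochberg adjustment over all tested genes, threshold 0.05. Standard errors were the absolute log2 fold change over the square root of F. The script was tested on simulated data. Alternatives used DESeq2 1.42.0 and limma 3.58.1, other filters, each library left out, a replicate block and a GC and length offset (loess, span 0.5). Replicates differed by more than sampling noise (chi-square per degree of freedom 2.52 to 4.38) and all 6 libraries were kept; p-values reflect variation among these samples alone, and it may be technical. The floor of 3 counts covers counting error only.

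Sequences came from the RefSeq annotation of TAIR10.1, read at its own gene starts. The genes, classes and lists were chosen with earlier results of these data known. Genes named are the 10 genes, up to 5 called genes with the largest change in each of 4 lists, 5 sensors and the 5 genes most like SPX1; other regulators and neighbours were named after their values were seen.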

Additional observations from a re-analysis of the deposited data

How the results depend on the processing

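SPX1, SPX2, PHO1;H1 and PHO2 kept their calls in all 15 alternatives and SPX3 in the 14 in which it was tested (the filter requiring 5 CPM or more in 3 libraries left it out), with log2 fold changes of 1.25 to 1.98, 0.59 to 0.76, 0.78 to 0.91, 0.40 to 0.54 and 1.53 to 2.37. PHR1, PHL1 and NLA stayed uncalled in all 15. PHO1 lost its call when WT replicate 3 or 17ab replicate 2 was left out and in the unfiltered limma-trend fit on log2(FPKM + 1) (0.53, limma adjusted p = 0.07353). The number of fallen genes among the 10 was 1, SPX4, with no filter on low counts, with the GC and length offset (added after seeing the data) and without 17ab replicate 3 (0 to 1 without 1 library); the cause was not tested. Over all genes 2515 were called, 1571 to 2090 without 1 library, 1599 by DESeq2 and 1616 by that unfiltered limma-trend fit. Risen genes with other SPX domains numbered 1 to 3 without 1 library and 1 in each of the 3 limma-trend fits. Fallen regulators numbered 1 to 2 without 1 library and 1 with DESeq2 and in each of the 3 limma-trend fits. For the other 24 genes named by rule, 33 of 358 results (1 gene in 1 alternative) lost their call, 0 gained one and 0 were reversed. The 24 genes include bZIP28 and bZIP60, which had no call to lose. The replicate numbers do not pair the samples (correlation of deviations -0.004, -0.116 and -0.047 for same numbers); with the replicate block 1853 genes were called, all 10 calls of the phosphate sensing genes were as without it, and AT1G35350 was lost (edgeR adjusted p = 0.05207). Low counts limit SPX3, which had 29 in the WT libraries together, and NPC4, which had 11 and which the 5 CPM filter also left out.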

Other observations

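Of 14 tested genes next to or overlapping the phosphate sensing genes 3 changed, beside 14.1% of all tested genes, a count too small to set apart from that share. AKT1, a potassium channel gene that lies head to head with SPX2 at a distance of 2013 bases, rose from 5.0 ± 0.161 to 9.55 ± 0.816 FPKM (SD, n = 3), or by 0.90 ± 0.11 on the log2 scale (SE, edgeR adjusted p = 0.0002546). BGLU11, a beta-glucosidase gene 1723 bases before NLA, rose from 16.3 to 37.6 FPKM, or by 1.17 ± 0.08 on the log2 scale (SE, edgeR adjusted p = 4.331e-06), while NLA itself did not pass the test. AT5G20160, which ends 38 bases from the end of SPX1 on the opposite strand, fell by 0.30 on the log2 scale (SE 0.09, edgeR adjusted p = 0.03741). These neighbours were named after their values were seen.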
